A study of Rattus norvegicus with 16 samples.

Results

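The 10 genes described here encode proteins of the presynaptic release machinery: the SNARE proteins Stx1a, Vamp2 and Snap25, the synapsins Syn1 and Syn2, the active zone and priming proteins Rims1 and Unc13a, and the complexins Cplx1, Cplx2 and Cplx3. Each gene was represented by the transcript cluster, the set of probes that the array summarises as 1 value, whose annotated symbol was exactly that name. This gave 10 of the 27342 clusters measured, of which 15097 carried exactly 1 gene symbol. Stx1a had 2 such clusters, which differed by at most 0.00336 log2 units on any array, and the one with the higher mean was used. Cortex and hippocampus of aged male Sprague-Dawley rats were profiled on Affymetrix arrays after the animals had eaten chow mixed with curcumin, the yellow polyphenol of turmeric, or standard control chow, for 6 or 12 weeks. The rats carried no engineered allele and were 15 months old when the work on them began, in every group, and the 6-week and 12-week groups were different animals. The 8 groups were hippocampus control 6 weeks, hippocampus curcumin 6 weeks, hippocampus control 12 weeks, hippocampus curcumin 12 weeks and the same 4 for cortex, with 2 arrays each. RNA for an array came from tissue pooled over 3 rats, of 6 rats in a group, so single animals cannot be told apart. By their titles the 2 arrays are biological replicates, but the series' design text can be read as 2 arrays of 1 RNA, so the p-values measure only the spread between these arrays, which may be technical.

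Neurotransmitter leaves a nerve terminal when a synaptic vesicle fuses with the plasma membrane. Vamp2 on the vesicle zips together with Stx1a and Snap25 on the plasma membrane into the SNARE complex that drives fusion. Synapsins tether the reserve of vesicles, Rims1 docks vesicles at the active zone, Unc13a opens Stx1a for assembly in the step called priming, and complexins clamp the assembled complex until calcium arrives. All of these are enriched in neurons, so that in bulk tissue fewer neurons and less RNA for a neuron cannot be told apart.

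Promoters are shown for the 4 genes that passed in a diet comparison in cortex and for Stx1a, which had the largest difference of the 10 in cortex at 6 weeks. Sequences from RefSeq (assembly GRCr8, 250 bases before to 50 bases after the annotated start) matched 9 of the 10 genes by gene ID, with Snap25 not among them. They are written 5′ to 3′ on the strand of the gene. Capitals mark GGGCGG (the GC box bound by Sp family factors), TGACGTCA (the cyclic AMP response element), and TTCAGCACC and GGACAGCGC (the 2 parts of the RE1 element bound by the neuronal gene repressor REST), each searched on both strands. The windows were chrX:3725495-3725794 on the plus strand for Syn1, chr10:54292539-54292838 on the plus strand for Vamp2, chr9:32692723-32693022 on the minus strand for Rims1, chr16:18415737-18416036 on the minus strand for Unc13a and chr12:27306422-27306721 on the minus strand for Stx1a.
Syn1: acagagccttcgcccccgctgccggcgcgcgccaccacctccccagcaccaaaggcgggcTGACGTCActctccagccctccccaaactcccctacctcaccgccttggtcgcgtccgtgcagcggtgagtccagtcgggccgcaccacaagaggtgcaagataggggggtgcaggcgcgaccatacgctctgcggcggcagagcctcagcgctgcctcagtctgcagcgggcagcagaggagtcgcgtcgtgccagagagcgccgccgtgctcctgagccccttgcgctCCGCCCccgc
Vamp2: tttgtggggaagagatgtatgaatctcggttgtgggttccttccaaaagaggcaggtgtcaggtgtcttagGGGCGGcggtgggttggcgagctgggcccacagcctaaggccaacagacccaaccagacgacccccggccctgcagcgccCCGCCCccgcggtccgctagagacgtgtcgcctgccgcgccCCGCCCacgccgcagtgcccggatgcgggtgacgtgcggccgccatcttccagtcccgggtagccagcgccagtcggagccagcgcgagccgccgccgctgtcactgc
Rims1: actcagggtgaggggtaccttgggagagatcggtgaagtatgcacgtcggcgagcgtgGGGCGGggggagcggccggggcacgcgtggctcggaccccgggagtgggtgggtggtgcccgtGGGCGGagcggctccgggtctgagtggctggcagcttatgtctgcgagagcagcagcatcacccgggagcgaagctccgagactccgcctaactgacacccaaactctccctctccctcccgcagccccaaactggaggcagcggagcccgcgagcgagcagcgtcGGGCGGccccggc
Unc13a: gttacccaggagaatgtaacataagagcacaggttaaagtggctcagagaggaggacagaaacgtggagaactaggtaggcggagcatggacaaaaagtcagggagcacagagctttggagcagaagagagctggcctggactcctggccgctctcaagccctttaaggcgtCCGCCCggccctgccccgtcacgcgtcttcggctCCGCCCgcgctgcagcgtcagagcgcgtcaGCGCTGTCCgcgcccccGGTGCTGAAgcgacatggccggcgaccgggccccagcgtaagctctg
Stx1a: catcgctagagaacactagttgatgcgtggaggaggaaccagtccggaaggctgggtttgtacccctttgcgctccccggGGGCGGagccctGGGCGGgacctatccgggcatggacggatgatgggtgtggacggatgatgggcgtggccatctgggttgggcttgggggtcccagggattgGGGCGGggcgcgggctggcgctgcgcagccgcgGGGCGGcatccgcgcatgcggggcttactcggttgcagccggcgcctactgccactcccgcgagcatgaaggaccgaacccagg

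The GC box was found in 8 of the 9 member promoters, all but that of Cplx3, against 33.1% of the 33469 rat promoters of the same length. The Stx1a promoter held 4 copies, those of Vamp2, Syn2 and Rims1 held 3 each, those of Unc13a and Cplx1 held 2 each, and those of Syn1 and Cplx2 held 1 each. The member promoters were between 54% (Cplx2) and 71% (Syn1) G or C, against a median of 51.7% over all promoters. The cyclic AMP response element was found in Syn1 alone among the 9, with its first base at position -190 from the start, and in 1.83% of all promoters. Unc13a alone held both RE1 parts, separated by 8 bases and lying across the start site, against 0.0209% of all promoters, with no limit on the distance between the parts. These matches describe the letters in the windows and not sites of binding.

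On the deposited log2 scale, Snap25 was the brightest member and stood at the 99.5th percentile of all clusters by its mean over the 16 arrays, while 8 others lay between the 90.7th percentile (Unc13a) and the 97.6th (Syn2). Cplx3 was the dim exception at the 52.6th percentile. Percentiles describe probe brightness and do not rank the transcripts against each other. Array medians ran from 6.35 to 6.44. Prox1, a marker of dentate granule cells, lay between 7.31 and 8.07 on the 8 hippocampal arrays and between 5.71 and 6.81 on the 8 cortical arrays, so the tissue labels and this marker went together.

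The 2 control cortex arrays at 6 weeks differed from the other cortical arrays in genes of other tissue and cells. The mean level of 7 olfactory bulb markers was 6.76 and 8.09 on these arrays, against 6.24 to 6.60 on the other 6 cortical arrays. The mean of 11 striatal markers was 8.59 on the first control array, against 6.77 to 8.02 on the other 6, and the second control array, at 6.92, lay within that range. The mean of 14 oligodendrocyte and myelin genes was 9.23 and 8.77, against 7.87 to 8.70 on the other 6. The members' diet differences in cortex at 6 weeks are therefore also given without each of these arrays. Each such fit keeps the other as the only control array, so neither fit is free of both.

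The 10 genes were compared between diets in each tissue and at each duration, to ask whether dietary curcumin altered the release machinery of the ageing brain. Syn1 and Rims1 were higher in cortex with curcumin and passed the test at both durations, as did Vamp2 and Unc13a at 12 weeks. None of these genes passed at either duration in a fit on the cortical arrays alone. The 6-week calls also rest on the control arrays that differed in genes of other tissue and cells. Stx1a, Syn2, Cplx2 and Cplx3 had differences of 0.50 to 0.92 log2 units in cortex at 6 weeks that did not pass the test. In hippocampus no member passed at either duration. A cluster passed when its limma p, adjusted over all 27342 clusters by the Benjamini-Hochberg method, was under 0.05, and differences are curcumin minus control in log2 units with the standard error (SE).

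**Figure D1:**
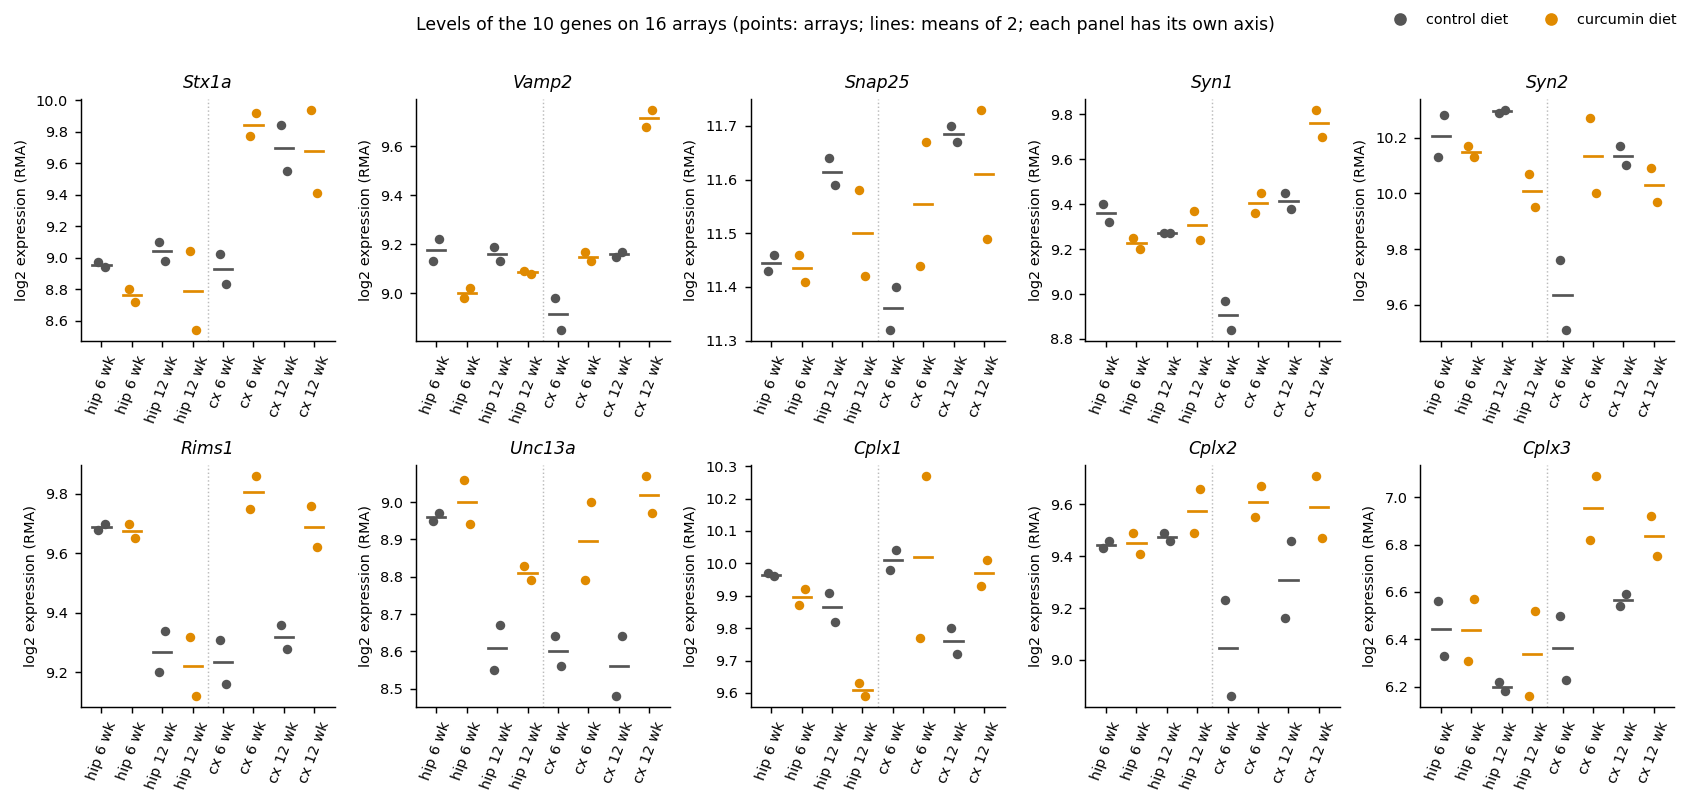
Log2 expression values (vertical axes, RMA) of the 10 genes in hippocampus (hip) and cortex (cx) at 6 and 12 weeks (wk) on control (grey) or curcumin (orange) diet. Points are arrays and lines are means of 2 arrays. Vamp2 and Syn1 reached 9.68 to 9.75 and 9.70 to 9.82 on the curcumin cortex arrays at 12 weeks, above all other arrays, while the 6-week control cortex had their lowest group means.

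In cortex at 6 weeks all 10 differences were positive, with a median of 0.50 beside 0 and 50.6% positive differences over all clusters. Tests, which were two-sided, were passed by 2 of the 10 members, both higher, where 0.0987% of all clusters passed as higher and 0.106% in either direction. For 9 of the 10 members, all but Cplx1, both curcumin arrays lay above both control arrays, which held for 18.9% of all clusters. An unadjusted p under 0.05 was reached by 8 members, where 6.94% of all clusters reached it as higher.

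Among the SNARE genes, Stx1a, the plasma membrane SNARE that Unc13a and its partners act on, read 9.02 and 8.83 on the control arrays and 9.77 and 9.92 on the curcumin arrays of cortex at 6 weeks. The 2 groups lay clear of each other, by more than the gap between arrays of either group. The difference of 0.92 (SE 0.182), a 1.9-fold higher level, did not pass after adjustment (adjusted p = 0.0844). Vamp2, the vesicle SNARE, read 8.98 and 8.85 in controls and 9.17 and 9.13 with curcumin. Its difference of 0.24 (SE 0.0615) did not pass either (adjusted p = 0.156), although the groups did not overlap. Snap25, which supplies a pair of helices to the complex, read 11.32 and 11.40 against 11.44 and 11.67, a difference of 0.20 (SE 0.0938) with an interval from -0.01 to 0.41.

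Of the synapsins, Syn1 read 8.97 and 8.84 on the control arrays and 9.36 and 9.45 on the curcumin arrays at 6 weeks. The lower curcumin array stood well above the higher control array, and Syn1 rose by 0.50 (SE 0.0727, adjusted p = 0.0488). Syn2 read 9.76 and 9.51 against 10.27 and 10, also without overlap. Its difference was the same size, 0.50, with a larger error (SE 0.103), and it did not pass (adjusted p = 0.092).

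Rims1, the active zone scaffold, read 9.31 and 9.16 in control cortex and 9.75 and 9.86 with curcumin at 6 weeks. The groups were well apart and Rims1 rose by 0.57 (SE 0.0855, adjusted p = 0.0488). Unc13a, the priming factor, read 8.64 and 8.56 against 8.79 and 9.0, a difference of 0.29 (SE 0.086) that did not pass (adjusted p = 0.199).

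The complexins differed among themselves. Cplx2 read 9.23 and 8.86 in controls and 9.55 and 9.67 with curcumin, a difference of 0.57 (SE 0.131, adjusted p = 0.119). Cplx3, known mainly from ribbon synapses and deep cortical neurons, read 6.50 and 6.23 against 6.82 and 7.09, a difference of 0.59 (SE 0.147, adjusted p = 0.144). Neither passed, though neither pair of groups overlapped. Cplx1 was the only member whose 6-week cortical groups overlapped: the curcumin arrays read 9.77 and 10.27 around controls of 9.98 and 10.04, and the difference of 0.01 had an interval from -0.26 to 0.28. Stx1a and Cplx3 were named by the study from these same samples, so their values are not independent evidence of a direction.

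**Figure D2:**
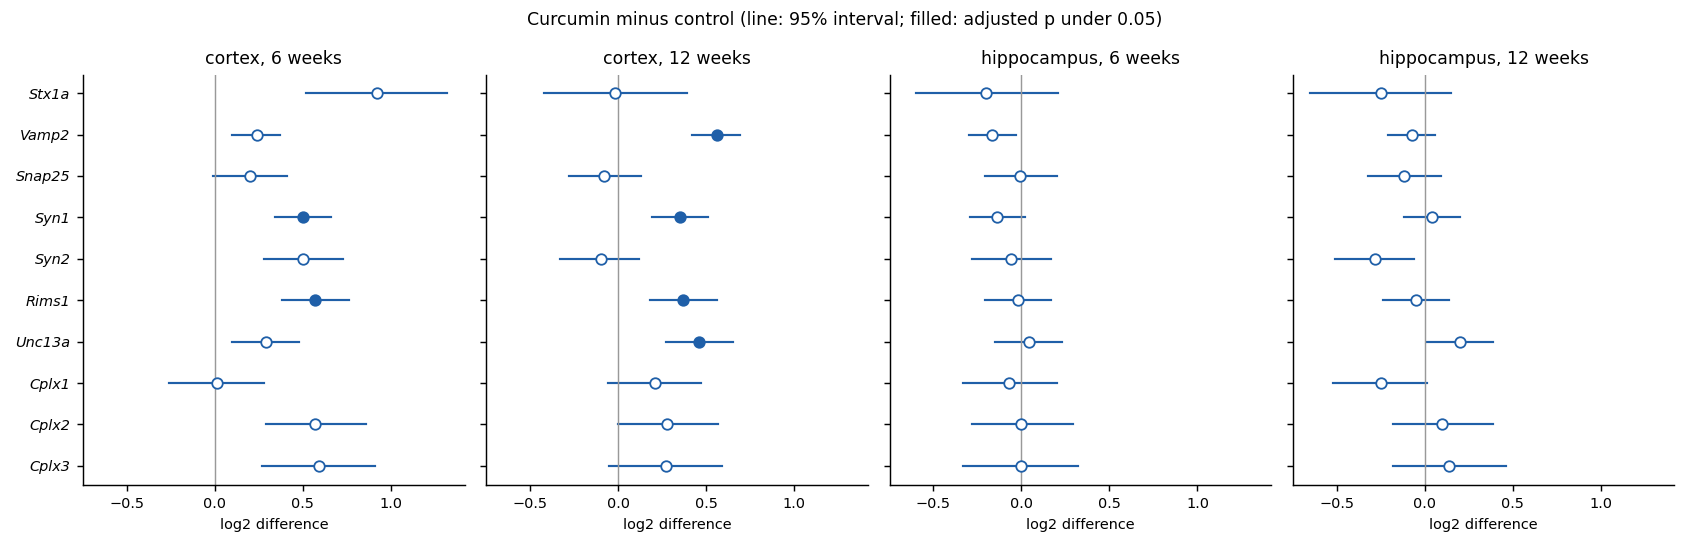
Log2 difference, curcumin minus control (horizontal axes), for the 10 genes in each tissue and at each duration. Points are differences of group means, lines are 95% intervals of the limma fit, and filled points passed at an adjusted p under 0.05. Filled points are Syn1 and Rims1 in cortex at 6 weeks and Vamp2, Syn1, Rims1 and Unc13a in cortex at 12 weeks.

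The calls at 6 weeks depended on single arrays. Without the first control array, the one with high striatal and myelin genes, 5 members passed (Stx1a 1.01, Syn1 0.57, Syn2 0.63, Rims1 0.64 and Cplx2 0.76). The other differences were then 0.30 for Vamp2, 0.16 for Snap25, 0.34 for Unc13a and 0.73 for Cplx3. Without the second control array, the one with high olfactory bulb genes, none passed (limma, adjusted p from 0.327 for Syn1 and Rims1). The differences were then 0.83 for Stx1a, 0.17 for Vamp2, 0.24 for Snap25, 0.43 for Syn1, 0.38 for Syn2, 0.50 for Rims1, 0.25 for Unc13a, 0.39 for Cplx2 and 0.45 for Cplx3. That of Cplx1, near 0 with all arrays, ran from -0.24 to 0.26 over the 4 fits that left out 1 array. Without either curcumin array none passed. By the study's rule of 1.5-fold between group means, 2 members were higher (0.486% of all clusters), Stx1a and Cplx3, and neither Syn1 at 1.41-fold nor Rims1 at 1.48-fold met it.

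Genes of other cells moved in the same comparison. The 14 myelin genes were all lower with curcumin at 6 weeks in cortex (median difference -0.79), as were all 12 microglial genes (median -0.38) and all 7 olfactory bulb genes (median -1.10), and 10 of 11 striatal genes were lower (median -0.51). None of these 4 lists had a gene that passed. The striatal means were 8.59 and 6.92 on the control arrays and 6.86 and 7.62 on the curcumin arrays, so these groups overlapped. The myelin means were 9.23 and 8.77 against 7.87 and 8.70, close to overlap. Of 13 pan-neuronal genes 11 were higher (median 0.29) and 1 passed, and of 7 genes of excitatory projection neurons 6 were higher (median 0.46) and 1 passed. The GABA interneuron genes went the other way, with 8 of 12 lower (median -0.35) and 0 passing in limma, 5 of them with an unadjusted p under 0.05 as lower, and all 5 red blood cell genes were lower (median -0.58). The mean of the excitatory list was 8.52 and 8.48 on the control arrays and 8.88 and 9.11 on the curcumin arrays. The part of tissue makeup in the members' differences was not tested.

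**Figure D3:**
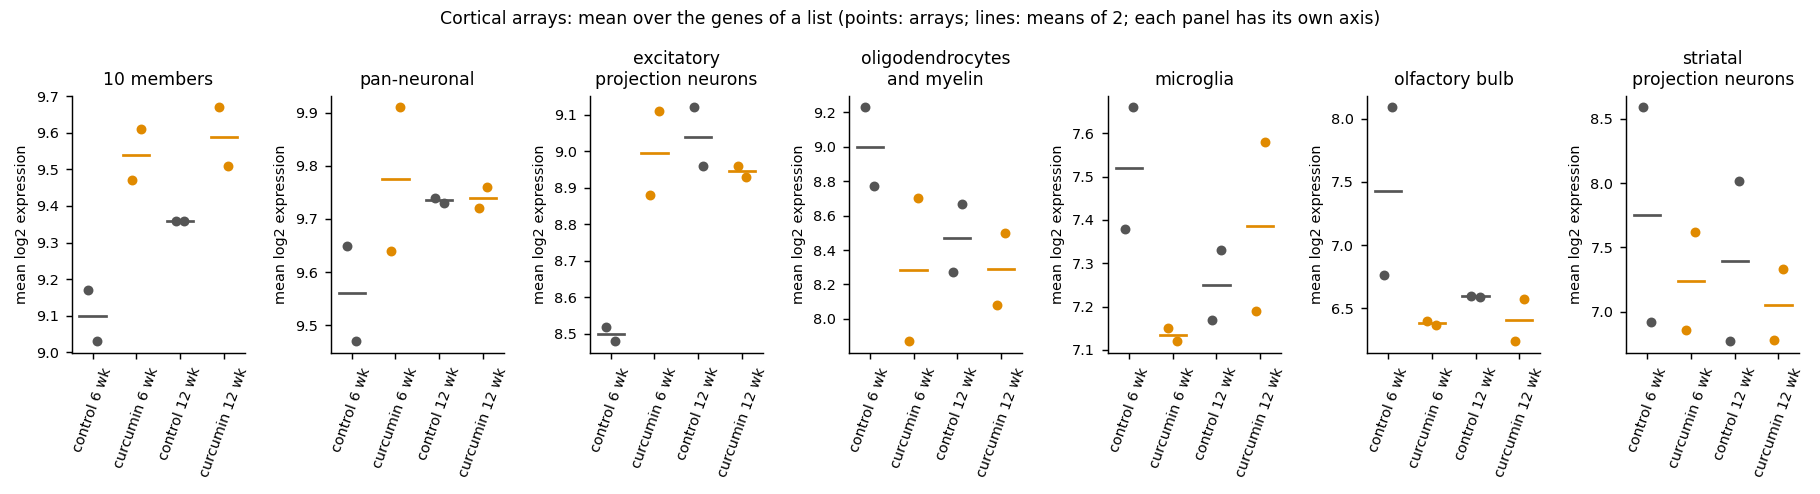
Mean log2 expression (vertical axes) over the 10 members and over 6 marker lists on the 8 cortical arrays, with control in grey and curcumin in orange. Points are arrays and lines are means of 2. The 6-week control arrays have the lowest members' means (9.17 and 9.03) and the highest olfactory bulb means (6.76 and 8.09), while at 12 weeks the members' mean was higher with curcumin and the pan-neuronal means lay between 9.72 and 9.76 on all 4 arrays.

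After 12 weeks fewer members were higher in curcumin cortex, while 4 passed after adjustment against 2 at 6 weeks. The adjusted threshold depends on all clusters, of which 885 passed in either direction at 12 weeks and 29 at 6 weeks. An unadjusted limma p under 0.05 was reached as higher by 4 members at 12 weeks (7.63% of all clusters), against 8 at 6 weeks. Of the 10 members 7 had positive differences and 3 negative ones, with a median of 0.28 beside 0 and 50.2% positive differences over all clusters. In this comparison 4 members passed, all higher, where 1.64% of all clusters passed as higher and 3.24% in either direction. The curcumin arrays lay above the control arrays for 7 members (22.3% of all clusters) and below them for Syn2 alone (22% of all clusters).

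Vamp2 read 9.15 and 9.17 on the 12-week control arrays of cortex and 9.68 and 9.75 on the curcumin arrays. These curcumin arrays were the highest of all 16, the others lying between 8.85 and 9.22, and Vamp2 rose by 0.56 (SE 0.0615, adjusted p = 0.00273), a 1.47-fold higher level. Unc13a read 8.48 and 8.64 against 9.07 and 8.97, with no overlap, and rose by 0.46 (SE 0.086, adjusted p = 0.0178).

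Syn1 read 9.45 and 9.38 in control cortex and 9.82 and 9.70 with curcumin at 12 weeks. It rose by 0.35 (SE 0.0727, adjusted p = 0.0286), the curcumin arrays again being the highest of all 16. Rims1 read 9.36 and 9.28 against 9.76 and 9.62 and rose by 0.37 (SE 0.0855, adjusted p = 0.0418). Syn1 and Rims1 were 2 of only 7 clusters (0.0256% of all) that passed in cortex at both durations.

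The other members did not pass at 12 weeks. Stx1a read 9.84 and 9.55 in control cortex and 9.94 and 9.41 with curcumin, so that the curcumin arrays bracketed the controls, and its difference was -0.02 with an interval from -0.42 to 0.39. Snap25 (-0.08) and Syn2 (-0.10) were near 0, with intervals from -0.28 to 0.13 and from -0.33 to 0.12. Cplx1, Cplx2 and Cplx3 had differences of 0.21, 0.28 and 0.27, each with both curcumin arrays above both controls, and adjusted p between 0.342 and 0.498.

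Vamp2 passed at 12 weeks without any 1 of the 4 arrays (differences 0.52 to 0.59), while Syn1 and Rims1 passed in no fit that left out 1 of them and Unc13a only without the second control array. Of the pan-neuronal genes 5 of 13 were higher at 12 weeks (median -0.01), and of the excitatory genes 3 of 7 (median -0.03). All 9 astrocyte genes were lower (median -0.20, 1 passed), as were 13 of 14 myelin genes (median -0.12) and 10 of 11 striatal genes (median -0.35). The myelin means were 8.27 and 8.67 on the control arrays and 8.08 and 8.5 with curcumin. The striatal means were 6.77 and 8.02 against 6.78 and 7.33, and for both lists the groups overlapped.

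In hippocampus the members moved little with diet. At 6 weeks 8 of 10 differences were negative, beside 51.1% of all clusters, with a median of -0.04 and a range of -0.20 to 0.04. For 4 members both curcumin arrays lay below both control arrays (17.7% of all clusters). The limma test was passed by 0 members, with 0% of all clusters passing, and 1 member had an unadjusted p under 0.05, where 2.03% of all clusters did. That member was Vamp2, which read 9.13 and 9.22 in controls and 8.98 and 9.02 with curcumin, without overlap, a difference of -0.17 (SE 0.0615) with an interval from -0.30 to -0.03. At 12 weeks 6 of 10 differences were negative, beside 50.2% of all clusters (median -0.06). Again 0 members passed in limma (0.00366% of all clusters), and 2 had an unadjusted p under 0.05, where 5.11% of all clusters did.

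These 2 were Syn2 and Unc13a. Syn2 read 10.29 and 10.30 in control hippocampus and 10.07 and 9.95 with curcumin at 12 weeks, a difference of -0.28 (SE 0.103, adjusted p = 0.894). Unc13a read 8.55 and 8.67 against 8.83 and 8.79, a difference of 0.20 (SE 0.086, adjusted p = 0.97). Neither pair of groups overlapped, and the signs of these 2 members were opposite. Syn1, higher in cortex at both durations, read 9.27 on both control arrays of hippocampus at 12 weeks and 9.37 and 9.24 with curcumin, a difference of 0.04 with an interval from -0.12 to 0.20.

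Whether the diet effect differed between tissues was tested directly. At 12 weeks the cortical effect of Vamp2 exceeded the hippocampal effect by 0.63 (SE 0.0869, adjusted p = 0.0247), and Vamp2 was the 1 member that passed, where 0.117% of all clusters passed as higher and 0.19% in either direction. All 10 differences of effect were positive at 12 weeks (median 0.25, beside 50% of all clusters) and at 6 weeks (median 0.56, beside 49.7% of all clusters). At 6 weeks no member and no other cluster passed in limma (0%), while 7 members had an unadjusted p under 0.05, where 5.48% of all clusters did. The largest of these were Stx1a at 1.12 (SE 0.258, adjusted p = 0.502) and Syn1 at 0.63 (SE 0.103, adjusted p = 0.467). The Vamp2 call at 12 weeks was lost without any 1 of the 8 arrays (adjusted p up to 0.134), with differences of 0.60 to 0.66. At 6 weeks the difference of effects of Syn1 was 0.70 without the first control cortex array and 0.57 without the second.

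Whether the cortical effect changed between 6 and 12 weeks was tested in the same way. No member passed in limma (1.47% of all clusters did), and 3 had an unadjusted p under 0.05, where 14.7% of all clusters did. The effect on Syn2 was smaller at 12 weeks by 0.60 (difference of effects -0.60, SE 0.145, adjusted p = 0.0681), and that on Stx1a by 0.94 (-0.94, SE 0.258, adjusted p = 0.102). The effect on Vamp2 was larger at 12 weeks by 0.32 (SE 0.0869, adjusted p = 0.098). Without the first or the second 6-week control array this was 0.25 or 0.39. Without the first or the second 6-week control array, the difference was -0.73 or -0.48 for Syn2 and -1.03 or -0.85 for Stx1a. Over the 8 fits that left out 1 cortical array, that of Stx1a ran from -1.20 to -0.67. The 2 effects of Syn1 and Rims1 differed by -0.15 and -0.20, with intervals from -0.38 to 0.07 and from -0.46 to 0.07. Without the first 6-week control array these were -0.22 and -0.27, and without the second -0.08 and -0.12. In hippocampus 0 members and 0% of all clusters passed for the same difference, and 0 members had an unadjusted p under 0.05, where 3.43% of all clusters did.

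The 6-week control cortex held an unusual place among the cortical groups. It was the lowest of the 4 for 8 of the 10 members, and for 6 of them (Stx1a, Vamp2, Snap25, Syn1, Syn2 and Cplx3) both its arrays lay below all other 6 cortical arrays, as they did for 8.02% of all clusters. For Stx1a the 2 arrays read 9.02 and 8.83, while the other 6, treated or not, lay between 9.41 and 9.94.

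Between 6 and 12 weeks on control diet, 4 members rose in cortex, where 5.42% of all clusters passed as higher and 8.85% in either direction. Stx1a rose by 0.77 (SE 0.182, adjusted p = 0.0263), Vamp2 by 0.25 (SE 0.0615, adjusted p = 0.0307), Syn1 by 0.51 (SE 0.0727, adjusted p = 0.00368) and Syn2 by 0.50 (SE 0.103, adjusted p = 0.0145). Syn1 passed also without any 1 of the 4 arrays. Stx1a, Vamp2 and Syn2 passed only where the array left out was the first 6-week one, and without the second 6-week one their differences were 0.67, 0.18 and 0.38. With the replicate number as a block Vamp2 did not pass (adjusted p = 0.0578). Myelin genes were all lower at 12 than at 6 weeks in these controls (median -0.54), and excitatory genes were higher (6 of 7, median 0.72, 5 passed). On curcumin diet, Vamp2 rose in cortex between 6 and 12 weeks by 0.57 (SE 0.0615, adjusted p = 0.00251) and Syn1 by 0.36 (SE 0.0727, adjusted p = 0.0255), where 1.7% of all clusters passed as higher and 3.24% in either direction. Vamp2 passed also without any 1 of these 4 arrays, and Syn1 in no such fit (0.30 to 0.41, adjusted p up to 0.128). The 2 diets share no arrays in this comparison. The differences of Rims1 over time in cortex were 0.09 on control diet and -0.11 on curcumin, with intervals from -0.10 to 0.27 and from -0.30 to 0.07.

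In hippocampus Rims1 and Unc13a were lower at 12 than at 6 weeks. Rims1 read 9.68 and 9.70 at 6 weeks and 9.20 and 9.34 at 12 weeks on control diet, and 9.70 and 9.65 against 9.32 and 9.12 on curcumin. All 4 arrays at 6 weeks lay above all 4 at 12 weeks, and Rims1 fell by 0.42 on control diet (SE 0.0855, adjusted p = 0.0233) and by 0.45 on curcumin (SE 0.0855, adjusted p = 0.0248). Unc13a fell by 0.35 on control diet (SE 0.086, adjusted p = 0.0467), from 8.95 and 8.97 to 8.55 and 8.67, and its difference on curcumin was -0.20 (adjusted p = 0.31). Of the members 2 passed on control diet and 1 on curcumin diet, where 1.5% and 0.87% of all clusters passed as lower, 2.77% of all clusters passed as higher on control diet, and 4.27% and 2.27% in either direction. On control diet both calls were lost whichever of the 4 arrays was left out (Rims1 -0.35 to -0.49, Unc13a -0.29 to -0.41), and on curcumin diet that of Rims1 was lost without 3 of the 4 (-0.36 to -0.55). With the replicate number as a block Unc13a did not pass (adjusted p = 0.0849). The mean of 9 choroid plexus genes was 6.30 and 8.20 on the control arrays at 6 weeks and 5.74 and 5.72 at 12 weeks. On the curcumin arrays it was 5.69 and 7.71 at 6 weeks and 5.86 and 5.77 at 12 weeks. Rims1 read 9.70 on the first of these 6-week curcumin arrays and 9.65 on the second. The part of choroid plexus tissue in the differences over time was not tested. Duration and the batch of animals cannot be told apart.

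The tissues were then compared within each diet, over both durations. Both tissues came from the same rats, but the titles do not say which arrays share a pool, so the comparison treats arrays as independent. With same-numbered arrays of a diet and duration as a random block, the correlation within blocks was 0.0389 and no call changed. On control diet 8 of 10 differences, hippocampus minus cortex, were positive over both durations, beside 49.8% of all clusters. This average holds the 6-week control cortex, the lowest cortical group for 8 of the 10 members. At 12 weeks alone the hippocampal means were lower for Stx1a (9.04 against 9.69 in cortex), Cplx3, Syn1, Snap25 and Rims1. They were higher for Syn2, Unc13a, Cplx1 and Cplx2, and the mean of Vamp2 was 9.16 in both tissues. Syn2 passed at 0.37 higher (SE 0.0727, adjusted p = 0.0154), where 3.08% of all clusters passed as higher and 4.21% in either direction. Its means were 10.2 in hippocampus and 9.63 in cortex at 6 weeks, and 10.3 and 10.13 at 12 weeks. For no member did the 4 hippocampal and 4 cortical control arrays lie apart, as they did for 6.61% of all clusters. On curcumin diet all 10 differences were negative (median -0.27), with that of Syn2 near 0. Of the members 5 passed as lower in hippocampus than in cortex, where 2.58% of all clusters passed as lower and 5.9% in either direction. These were Stx1a at -0.99 (SE 0.129, adjusted p = 0.00133), Vamp2 at -0.39 (SE 0.0435, adjusted p = 0.000474), Syn1 at -0.32 (SE 0.0514, adjusted p = 0.00482), Rims1 at -0.30 (SE 0.0605, adjusted p = 0.0149) and Cplx3 at -0.51 (SE 0.104, adjusted p = 0.016).

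Stx1a showed the widest tissue gap on curcumin. Its 4 hippocampal arrays read 8.54 to 9.04 and its 4 cortical arrays 9.41 to 9.94. On control diet at 12 weeks the tissues also lay apart for Stx1a, at 9.1 and 8.98 in hippocampus against 9.84 and 9.55 in cortex. On control diet at 6 weeks they overlapped, at 8.97 and 8.94 against 9.02 and 8.83. On curcumin diet, over both durations, the arrays of the tissues lay apart for 3 members, Stx1a, Vamp2 and Cplx3 (3.67% of all clusters as lower). Stx1a, Vamp2 and Syn1 passed also without any 1 of the 8 arrays, while Rims1 was lost without 3 of them (-0.25 to -0.35 over all 8) and Cplx3 without 4 (-0.42 to -0.59). Syn2 on control diet was lost without any of 4 of the 8 arrays, the second array of each group (0.30 to 0.43 over all 8). The Cplx2 difference on control diet was 0.37 without the first 6-week cortex array and 0.19 without the second.

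**Figure D4:**
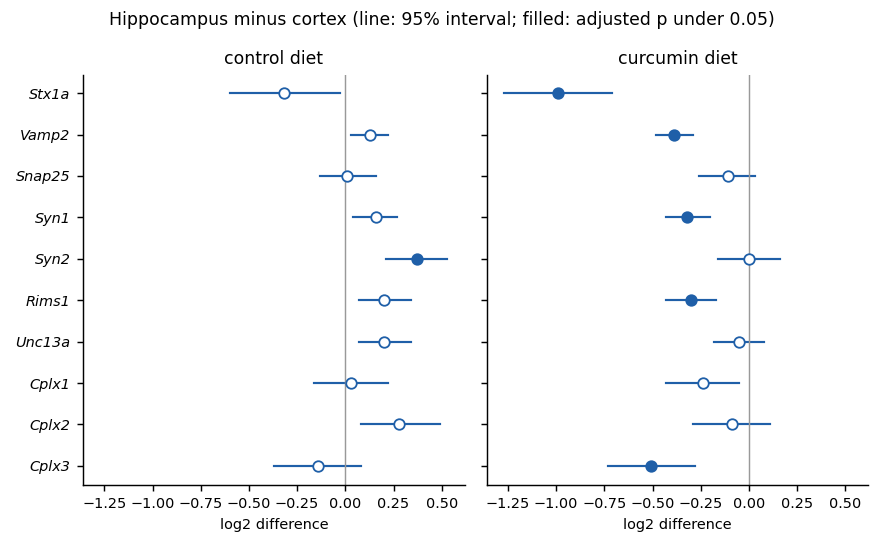
Log2 difference, hippocampus minus cortex (horizontal axes), for the 10 genes on control and on curcumin diet, each over both durations. Points are differences of means, lines are 95% intervals of the limma fit and filled points passed at an adjusted p under 0.05. On control diet only Syn2 (0.37) is filled, and on curcumin diet Stx1a, Vamp2, Syn1, Rims1 and Cplx3 are filled, all below 0.

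The spread over groups was wider in cortex than in hippocampus for most members. The 4 cortical group means of Stx1a spanned 0.92 log2 units and the 4 hippocampal means 0.28. For Vamp2 the spans were 0.80 and 0.17, for Syn1 0.85 and 0.14, and for Cplx2 0.57 and 0.13. Cplx1 went the other way, with 0.26 in cortex and 0.35 in hippocampus, where its lowest group was curcumin at 12 weeks (9.63 and 9.59). Rims1 and Unc13a were nearly even, at 0.57 and 0.47 and at 0.46 and 0.39. The cortical spans hold the 6-week control cortex, the lowest cortical group for 8 of the 10 members. For Stx1a its mean was 8.93, while the other cortical means lay between 9.68 and 9.85, closer together than the hippocampal means of 8.76 to 9.04. The other cortical means lay between 9.15 and 9.72 for Vamp2 and between 9.4 and 9.76 for Syn1. In order of level, the top group of Vamp2 and of Syn1 was curcumin cortex at 12 weeks, apart from the next group by 0.55 and 0.35. The top 3 groups of Stx1a, all cortical, overlapped one another and stood apart from the 5 lower groups.

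By the root mean square difference between 8 centred group means, the most alike members were Vamp2 and Syn1 (0.0936) and Rims1 and Unc13a (0.13), and the least alike were Stx1a and Unc13a (0.457). Outside the 10, the clusters nearest to Stx1a were Kcnv1 (0.129), Ephx4 (0.139) and Doc2a (0.168), and those nearest to Vamp2 were Abcc1 (0.0724), Rtbdn (0.0735) and Sf3b5 (0.0761). Rtbdn was also nearest to Syn1 (0.0765). The nearest to Unc13a were Ncan (0.05), Syt7 (0.056) and Sobp (0.0607), and those nearest to Rims1 were Gabbr2 (0.0825), Csmd1 (0.0835) and Ppfia3 (0.0836). These figures rest on 8 groups of 2 arrays.

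The wider release machinery was read from 4 lists of related genes, of which 57 of 70 had a cluster of their own. In cortex at 6 weeks 42 of the 57 differences were positive (median 0.17), beside 50.6% of all clusters, and 0 passed in limma, beside 0.106%. An unadjusted p under 0.05 was reached by 20 of the 57 as higher, beside 6.94% of all clusters, and by 4 as lower. Nearest to passing was Rab3a, the vesicle GTPase that Rims1 binds, which read 9.48 and 9.51 in controls and 9.80 and 9.88 with curcumin, a difference of 0.34 (SE 0.0552, adjusted p = 0.052). Synaptophysin (Syp), an abundant vesicle membrane protein, had a difference of 0.30 (adjusted p = 0.0885), the priming paralogue Unc13b 0.51 (adjusted p = 0.0947) and the liprin Ppfia3 0.55 (adjusted p = 0.101).

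At 12 weeks in cortex 31 of the 57 were positive (median 0.03), beside 50.2% of all clusters, and 2 passed, both lower, where 3.24% of all clusters passed in either direction. Of the 16 other active zone and priming genes 14 were positive (median 0.21) and 0 passed in limma, 7 having an unadjusted p under 0.05 as higher, beside 7.63% of all clusters. Of the 16 genes of vesicle clustering, Rab3 and the vesicle membrane 7 were positive (median -0.03) and 0 passed. The 16 other SNARE proteins had a median of -0.08 (12 negative), and 1 passed. The lists were not tested against each other. The SNARE that passed was Vamp7, a protein of late endosomes and lysosomes, which read 9.01 and 9.03 in controls and 8.56 and 8.58 with curcumin and fell by 0.45 (SE 0.0833, adjusted p = 0.0173).

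Of the 9 genes for assembly, disassembly and brakes 6 were positive (median 0.07), and 1 passed, on the lower side. Nsf, the ATPase that takes spent SNARE complexes apart, read 10.95 and 10.99 in control cortex at 12 weeks and 10.67 and 10.71 with curcumin, and fell by 0.28 (SE 0.0673, adjusted p = 0.0487). Napa, the adaptor that brings Nsf to the complex, read 9.72 and 9.68 against 9.19 and 8.97, a difference of -0.62 (SE 0.158, adjusted p = 0.0609). Napa was chosen after its values were seen. The groups of both genes lay apart, on the side opposite to Vamp2.

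The effect of the diet on these genes also differed between durations. The cortical effect at 12 minus that at 6 weeks was -0.56 for Nsf (SE 0.0952, adjusted p = 0.0239) and -0.66 for Vamp7 (SE 0.118, adjusted p = 0.0293), and these 2 of 57 passed, where 1.47% of all clusters did. With the replicate number as a block, Nsf did not pass at 12 weeks (adjusted p = 0.0958), nor Vamp7 for the difference (adjusted p = 0.0567). At 6 weeks Nsf had read 10.63 and 10.43 in controls and 10.80 and 10.83 with curcumin. Both calls at 12 weeks were lost without any 1 of the 4 arrays (adjusted p up to 0.121 for Vamp7 and 0.21 for Nsf), and both calls of the difference were lost without 5 of the 8 cortical arrays, the second 6-week control array among them (-0.55 to -0.77 for Vamp7 and -0.47 to -0.66 for Nsf). In hippocampus 0 of the 57 passed at either duration, with 0 having an unadjusted p under 0.05 at 6 weeks and 6 at 12 weeks, beside 2.03% and 5.11% of all clusters. The nearest was Rimbp2, the RIM-binding protein, which read 8.18 and 8.17 in controls and 8.65 and 8.60 with curcumin at 12 weeks, a difference of 0.45 (SE 0.077, adjusted p = 0.289).

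**Figure D5:**
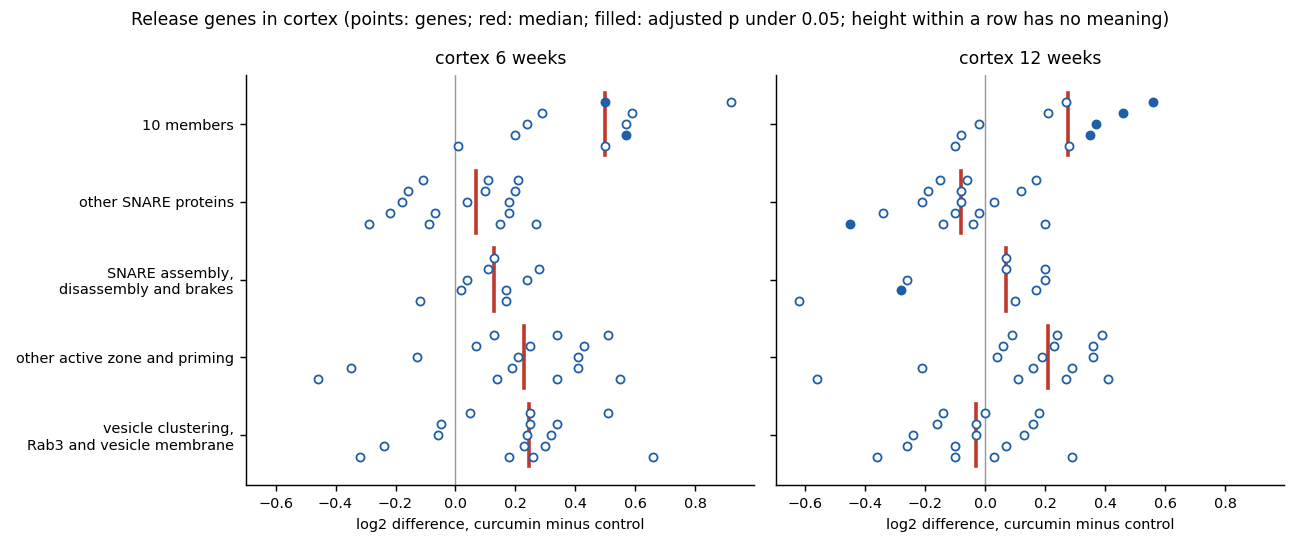
Log2 difference in cortex, curcumin minus control (horizontal axes), of the 10 members and of the genes of 4 related lists at 6 and 12 weeks. Points are genes, red lines are medians and filled points passed at an adjusted p under 0.05. At 12 weeks the members' median was 0.28, and the 2 filled points among the related genes, Vamp7 (-0.45) and Nsf (-0.28), lie below 0.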

How the data were processed

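Each array measured RNA of 1 pool of rats. The authors scanned the arrays, made primary data with Affymetrix Expression Console and normalized them by RMA, which corrects background, equalises the distributions of the arrays and summarises probes, and they also name Gene Spring. No version was given in the sources used here. The deposited values are on a log2 scale, so that signal over background and probe effects could not be examined, and the number of arrays limits the precision. The methods name an exon array and the annotation is that of a gene array, which was not settled. Symbols came from that annotation, and 11922 clusters had none.

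Linear models were fitted to 8 group means over all 16 arrays (limma 3.58.1 with eBayes in R 4.3.3, with 8 residual and 3.12 prior degrees of freedom), with no filter, Benjamini-Hochberg adjustment over 27342 clusters and 95% intervals. The script was tested on simulated data. The members and lists were chosen with earlier results of these data known, and the comparisons between durations, of tissues on curcumin diet, of the diet effect between tissues at 12 weeks and of its change with duration in hippocampus were added after seeing the data. All 10 members were named. Related genes were named where they passed in a diet comparison or in its change with duration in cortex (up to 6 a list) or, where none of a list did, from the 2 with the largest moderated t. Likeness took the 3 clusters with the smallest root mean square difference. Other settings tried were leaving out dim clusters, quantile normalization within tissues, fits on fewer arrays, robust estimation with a variance trend, array weights, a replicate block, pools as a random block (statmod 1.5.0), the mean of all clusters of a symbol, the 1.5-fold rule of the methods (at least 1.5 or at most 0.66) and leaving out each array. Promoters were read and figures drawn in Python with matplotlib.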

Additional observations from a re-analysis of the deposited data

Results flagged for a closer look

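The effect of curcumin on Vamp2 at 12 weeks was larger in cortex than in hippocampus by 0.63 log2 units, the only member for which this difference of effects passed the limma test. The cortical difference was 0.56 and the hippocampal difference -0.07 (interval from -0.21 to 0.06). Without 1 array at a time, the difference of effects ran from 0.60 to 0.66 but passed in none of the 8 fits (adjusted p from 0.0596 to 0.134), nor with the replicate number as a block (adjusted p = 0.0887).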

How the results depend on the processing

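Of 140 member values, 45 lay within 1 SE of 0 and were left out of the counts of values that held or changed. The members passing in cortex at 6 weeks, 2 as reported, became 0 in the fit on the 8 cortical arrays, in the fit on 4 arrays and with array weights, became 4 with the variance trend, stayed at 2 under the 1.5-fold rule but as Stx1a and Cplx3, and ran from 0 to 5 without 1 array. At 12 weeks the 4 became 0 in the fits on 8 and on 4 arrays and under the 1.5-fold rule, and ran from 1 to 2 without 1 array. For the change of the cortical effect with duration, the 0 became 1 (Syn2) without dim clusters and with the variance trend, 2 under the 1.5-fold rule, and 0 to 1 without 1 array. For the cortical minus hippocampal effect at 6 weeks, the 0 became 4 under the 1.5-fold rule, and 0 to 1 without 1 array. For hippocampus minus cortex on control diet, the 1 became 3 with quantile normalization within tissues, 0 under the 1.5-fold rule, and 0 to 2 without 1 array. Fits on fewer arrays have fewer degrees of freedom, and the cause of the other changes was not tested. The counts for diet in hippocampus, 0 at both durations, moved under no alternative. Of the values counted, 3 changed sign. Without the first curcumin cortex array at 6 weeks, these were the change of the Cplx1 effect with duration (-0.05, and up to 0.45 without others) and the Syn2 change over time on curcumin (0.03, and down to -0.24). Without the second curcumin hippocampus array at 12 weeks, it was the Stx1a effect there (0.01, and down to -0.50). Elsewhere direction and side of the threshold held for 840 values under the other settings, while 38 lost and 11 gained a call, and without 1 array 495 held, 78 lost and 8 gained one.

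The titles do not say that a replicate number marks shared rats. Over 28 pairs of same-numbered arrays the correlation of deviations ran from -0.429 to 0.494 and was above 0.1 in 7. For the 4 pairs of hippocampus and cortex of 1 diet and duration it was 0.124, -0.154, 0.162 and 0.148. These values do not settle whether same-numbered arrays share a pool. The arrays were not taken as paired because the titles do not tie them. With the replicate number within a tissue as a block, 0 members passed in cortex at 6 weeks (Syn1 and Rims1 at an adjusted p of 0.0686) and 3 at 12 weeks (not Rims1, 0.074), and 1 for the change of effect with duration (Syn2, 0.047). Other calls lost were Vamp2 for the difference between tissues at 12 weeks (0.0887) and over time in control cortex (0.0578), Unc13a over time in control hippocampus (0.0849), and Nsf (0.0958) and Vamp7 (0.0567) as given above. Member calls between tissues within a diet held under the block.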

Other observations

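On control diet, genes of the release machinery outside the 10 also moved with duration in hippocampus. Between 6 and 12 weeks, 4 of 16 genes of the vesicle clustering, Rab3 and vesicle membrane list rose, namely Syp (0.31, adjusted p = 0.0213), Syngr3 (0.43, adjusted p = 0.0492), Rabac1 (0.56, adjusted p = 0.009) and Sypl1 (0.45, adjusted p = 0.035). All 16 genes of the other active zone and priming list had negative differences (median -0.21), and Rimbp2 passed (-0.45, adjusted p = 0.0129). Of the other SNARE proteins, Vamp3 (0.51, adjusted p = 0.00693) and Stx12 (0.35, adjusted p = 0.0238) rose. Over all clusters 2.77% passed as higher and 1.5% as lower. These genes were chosen after their values were seen, and the 6-week control arrays are those with choroid plexus means of 6.30 and 8.20.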
